A study of Mus musculus with 135 samples.

Results

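Levels of 10 immediate early genes were measured in mouse germ cells at 2 stages, in primordial germ cells of the embryo and in ovulated oocytes of the adult. The genes were taken by symbol, as the rows Fos, Fosb, Jun, Junb, Jund, Egr1, Ier2, Atf3, Dusp1 and Zfp36. All 10 were found among the 19004 genes of the germ cell table and, by gene identifier, in the oocyte count tables. The animals were wild type (WT), Tet1-/- or Tet2-/- on a C57BL6/129 background. Tet1 and Tet2 encode dioxygenases that oxidise 5-methylcytosine. Primordial germ cells were purified at E13.5 from 4 to 6 embryos per group and gave 1 WT and 1 Tet2-/- library. Single metaphase II oocytes came from young females of 2 to 4 months or old females of 10 to 12 months. The 94 oocytes with a column in the count tables fell into 13 sets whose titles share an identifier. There were 4 young WT sets (38 oocytes), 2 young Tet1-/- sets (15), 2 young Tet2-/- sets (16), 2 old WT sets (12), 2 old Tet1-/- sets (6) and 1 old Tet2-/- set (7). The set was used as the replicate. The labels do not say whether a set is 1 female, so p-values measure the spread between these sets. They also do not give the exons removed from either Tet gene, the sex of the embryos, or how the germ cells were purified.

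Immediate early genes are transcribed within minutes of a stimulus, from promoters on which the needed factors are already bound, and their mRNAs are short-lived. Fos and Jun proteins pair to form AP-1, Egr1 is a zinc-finger transcription factor, and Dusp1 and Zfp36 act as brakes, by removing phosphate from MAP kinases and by promoting decay of AU-rich mRNAs. Dissociating and sorting tissue can switch these genes on, so they are often read as a mark of handling. A fully grown oocyte is transcriptionally silent, and its mRNAs were stored during growth.

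The promoters of 4 members are printed as examples of genes that differed in oocytes. Jun was nearly absent there, Fos was scarce, Dusp1 was abundant, and Junb was high in some sets and near 0 in others. The RefSeq promoter table (GRCm38.p6) held a window for 8 of the 10 members, not for Ier2 and Egr1. Each line gives bases upstream of the RefSeq start site, on the strand of the gene. Capitals mark TGACG (the CREB and ATF half-site, on the printed strand or its complement), TGACGTCA (the full site, which contains TGACG) and TATAAA.
Fos, chr12:85473640-85473889, plus strand: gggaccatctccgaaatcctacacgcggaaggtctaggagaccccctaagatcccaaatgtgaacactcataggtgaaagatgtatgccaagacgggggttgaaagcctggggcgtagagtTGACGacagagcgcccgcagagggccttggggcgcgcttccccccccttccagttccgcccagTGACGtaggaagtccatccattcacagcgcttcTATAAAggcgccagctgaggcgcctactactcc
Jun, chr4:95052223-95052472, minus strand: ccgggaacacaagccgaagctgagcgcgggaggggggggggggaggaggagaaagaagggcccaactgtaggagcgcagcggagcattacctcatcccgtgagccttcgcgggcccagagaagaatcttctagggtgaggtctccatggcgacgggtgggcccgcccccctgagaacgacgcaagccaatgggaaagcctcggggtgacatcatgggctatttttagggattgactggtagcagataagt
Junb, chr8:84978749-84978998, minus strand: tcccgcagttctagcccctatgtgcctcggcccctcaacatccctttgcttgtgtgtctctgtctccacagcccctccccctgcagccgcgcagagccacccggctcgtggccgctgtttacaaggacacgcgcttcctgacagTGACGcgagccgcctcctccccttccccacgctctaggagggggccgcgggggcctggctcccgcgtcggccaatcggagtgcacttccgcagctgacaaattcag
Dusp1, chr17:26508520-26508722, minus strand, without the 47 bases next to the start site that lie inside the GENCODE gene: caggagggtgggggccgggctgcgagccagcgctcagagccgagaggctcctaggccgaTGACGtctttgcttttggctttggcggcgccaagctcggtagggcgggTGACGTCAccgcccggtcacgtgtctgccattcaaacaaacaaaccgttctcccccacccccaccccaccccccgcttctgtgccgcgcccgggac

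Among the 250 bases upstream of the 8 members with a window, TGACG occurred in 5 (Fos, Fosb, Junb, Atf3 and Dusp1), against 17.8% of all 32851 windows. The palindrome TGACGTCA occurred in 1 member, Dusp1, against 1.55% of windows. TATAAA occurred in Fos alone, against 12.4% of windows. The AP-1 site TGANTCA occurred in none of the 8, against 6.75% of windows. The EGR site GCGNGGGCG occurred in Fosb and Zfp36, against 4.7% of windows, and the CArG box, which binds SRF, in Zfp36, against 1.47%. Both strands were searched for each motif. Variant spellings, and sites further upstream than 250 bases, were not searched, so an absence here covers only these patterns in these windows. These matches are letters in a window and not evidence of binding. The RefSeq start sites of Atf3 and Zfp36 lie 34706 and 1025 bases inside the GENCODE genes counted in oocytes. Their windows, and the matches in them, thus lie inside those genes. Members that held TGACG included Fos, scarce in oocytes, and Dusp1, abundant there.

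The targeted gene was read first. Tet1 stood at no more than 0.0474 counts per 1000000 counts (CPM) in the 4 Tet1-/- sets and between 1.15 and 4.61 CPM in the other 9. Tet2 did not mark the libraries labelled Tet2-/- as clearly, at 1.18 to 1.30 CPM in those 3 sets and 0.97 to 4.76 CPM in the others. In germ cells Tet2 was at 2.96 FPKM (fragments per kilobase of gene and per 1000000 fragments) in the library labelled Tet2-/- and 3.19 FPKM in WT. Totals ran from 2354503 to 12472307 counts per oocyte. The germ cell table has no counts, but low values of short genes lay on a step that puts the 2 libraries near 17900000 and 17400000 fragments. Markers of the labelled cell types were abundant, with Dppa3 at 287 and 306 FPKM and Pou5f1 at 473 and 538 FPKM in WT and Tet2-/- germ cells, and Gdf9 at 7315 CPM on average in oocytes.

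In E13.5 germ cells mRNA of every member was detected, and most were lower in the library labelled Tet2-/- than in WT. With 1 library of each genotype these differences have no replicate check. Of the AP-1 genes, Fos differed little, at 62.4 FPKM in WT and 65.8 in Tet2-/-, a log2 ratio of 0.08 (ratios use a pseudocount of 0.1 FPKM). Its relative Fosb was at 22.4 and 17.4 FPKM. Jun, the partner that lets Fos bind DNA, was at 43.2 FPKM in WT and 21.9 in Tet2-/-, a log2 ratio of -0.98. Junb, a Jun relative, was at 20.7 and 11.03 FPKM, a log2 ratio of -0.90. Jund, the Jun gene that many resting cells express, was the most abundant member in both libraries, at 212 FPKM in WT and 158 in Tet2-/-. Atf3, a stress-induced factor that pairs with Jun, was the least abundant in both, at 9.62 and 4.17 FPKM, a log2 ratio of -1.19. All 3 Jun genes and Fosb were thus lower, with Fos nearly level.

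Egr1 was at 41.96 FPKM in WT and 25.7 in Tet2-/-, a log2 ratio of -0.70. Ier2, a nuclear immediate early protein, was at 67.2 and 57.6 FPKM. Dusp1 was the second member that was higher in Tet2-/-, at 62.4 FPKM against 56.9 in WT. Zfp36 was at 15.9 and 10.9 FPKM. In all, 8 of the 10 members were lower in Tet2-/- and 2 were higher, where 59.2% of the 12577 genes with at least 1 FPKM in either library were lower. The median log2 ratio was -0.48 over the members and -0.07 over those genes. Atf3 was the 1 member at least 2-fold lower, against 4.41% of genes, and no member was at least 2-fold higher, against 1.02% of genes. Jun lay just short of that line. A count of 1 in 10 is too small to set apart from that share. At a 1.5-fold limit 4 members were lower (Atf3, Jun, Junb and Egr1), against 12.2% of genes.

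**Figure D1:**
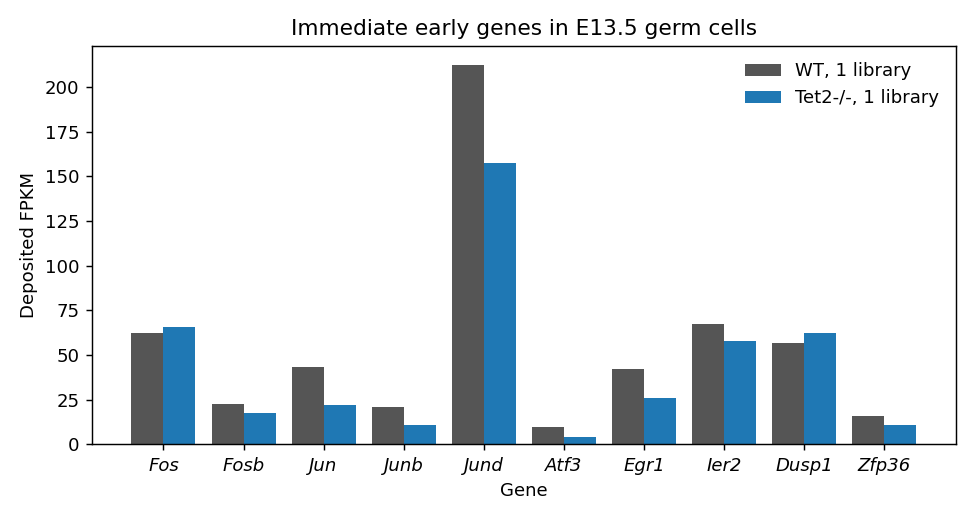
Deposited FPKM (vertical axis) of the 10 genes in the WT (grey) and Tet2-/- (blue) E13.5 germ cell library, 1 bar per library and no error. Jund stands highest, at 212 and 158 FPKM, and Fos and Dusp1 are the 2 genes whose Tet2-/- bar is the taller.

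The false discovery rate in the authors' deposited table was 2.76e-94 for Jun and 2.18e-18 for Atf3. These rates come from a Poisson comparison of 2 libraries, per the label of the table, and carry no spread between animals. Of the members the authors marked only Atf3 as down, and none as up, so Jun was not marked.

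Transcripts of other gonad cells differed between the same 2 libraries. Of 22 fetal gonad somatic markers, 15 reached 1 FPKM, 14 of these were lower in Tet2-/- and 7 were at least 2-fold lower. Their summed level was 136 FPKM in WT and 66.5 in Tet2-/-. Gata4, a factor of gonad somatic cells, was at 18.5 and 6.38 FPKM, Wt1 at 21.7 and 9.45, and Lhx9 at 15.5 and 7.26. Blood transcripts were lower too. All 5 erythroid markers at 1 FPKM or more were at least 2-fold lower, and the list summed to 2986 FPKM in WT and 1073 in Tet2-/-. Of 8 endothelial markers, 7 reached 1 FPKM and 4 of these were at least 2-fold lower. Their sum of 86.2 and 96.9 FPKM was mostly Pecam1, at 68.2 and 85.7 FPKM, and the other 7 were all lower in Tet2-/-. Macrophage markers were scarce in both, with sums of 16.2 and 13.98 FPKM over 14 genes. No marker of these 4 lists was at the table's lowest value, 0.01 FPKM, in both libraries. Germ cell markers summed to 2341 and 2376 FPKM over 14 genes with a median log2 ratio of 0.09, although Stra8, which starts meiosis, was at 138 and 71.6. The part of other cells in the lower immediate early levels was not tested. In a bulk library fewer cells of a type and less RNA per cell cannot be told apart.

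Most other immediate early genes were lower as well, a share close to that of all genes. Of 38 further immediate early genes, 36 reached 1 FPKM, 24 were lower and 12 higher, with a median log2 ratio of -0.28 against -0.07 over all genes. Only 1 of them, Myc, was at least 2-fold lower, at 2.91 FPKM in WT and 1.38 in Tet2-/-. Cyr61, a matrix protein gene driven by serum, was at 46.9 and 25.5 FPKM, and Zfp36l1, a relative of Zfp36, at 52.99 and 32.5. Klf2 went the other way, at 51.8 and 81.8 FPKM. The 20 measured regulators that act upstream (SRF, its cofactors, CREB and MAP kinases) had a median log2 ratio of 0.01 with none past 2-fold. The 13 feedback inhibitors of MAP kinase had a median of -0.02, again with none past 2-fold, and Dusp4 was at 24.4 and 33.9 FPKM. Of 9 other bZIP partners none passed 2-fold and the median was -0.20. Of 13 heat shock and chaperone genes 2 were at least 2-fold lower, Hspa1a at 5.95 and 2.54 FPKM and Hspa1b at 7.07 and 3.05, while the list's median was 0.11. Hspa1a and Hspa1b are near-identical copies whose reads can be shared, and both were chosen for mention after their values were seen, as was Myc.

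In oocytes the members separated by several orders of magnitude. Dusp1 averaged 452 CPM over the 13 sets, between 327 and 739, and made up 83.5% of the summed CPM of all 10 genes. Egr1 averaged 43.1 CPM, Junb 25.1, Zfp36 18.1 and Fosb 1.73. The other 5 members stayed below 1 CPM on average and gave 596 counts together over 94 oocytes. Jund was at 0.54 CPM, Fos at 0.40, Ier2 at 0.28 and Atf3 at 0.11. Jun was at 0.0067 CPM, from 3 counts in 3 different oocytes.

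**Figure D2:**
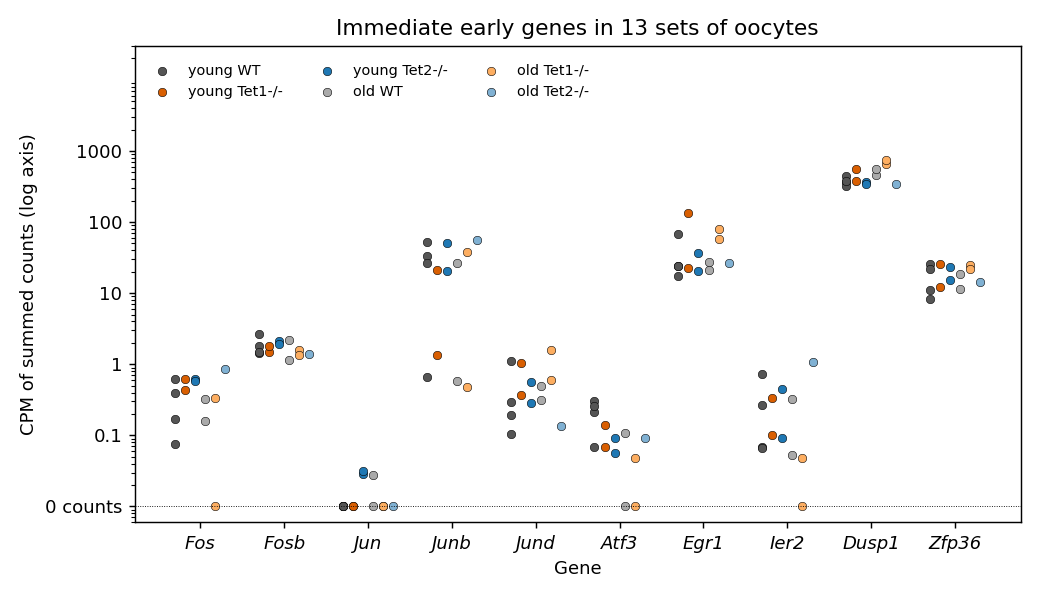
CPM of counts summed over the oocytes of a set (vertical, log axis) for the 10 genes, 1 point per set and coloured by group. Sets with 0 counts sit on the dotted line. Dusp1 lies at 327 CPM or more in every set, Jun is at 0 counts in 10 of 13 sets, and Junb forms 2 clouds.

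For levels between genes the counts were divided by exonic length. On that scale Dusp1 led with 168 ± 48.6 CPM per kb (SD, n = 13 sets), above every other member in 13 of 13 sets. Junb (10.9 ± 8.81) and Egr1 (9.61 ± 7.59) could not be ordered, Junb being the higher in 7 of 13 sets. Zfp36 followed at 5.21 ± 1.81 CPM per kb and was below Egr1 in 11 sets. A gap lay beneath it. Jund (0.33 ± 0.26), Fosb (0.28 ± 0.07), Ier2 (0.18 ± 0.21) and Fos (0.17 ± 0.11) overlapped in range, and neighbours in that order swapped between sets. Atf3 (0.05 ± 0.04) and Jun were last. All differences above refer to the mean level per kb, and none was given a test. The lengths are those of the counting model, and some are far from the lengths of the germ cell table. Zfp36 has 3470 bases against 1765 there, Fosb 6243 against 3783 and Egr1 4484 against 3072. The order of members of similar level can depend on the lengths used.

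The order was not that of the germ cells. Jund, first in germ cells and at percentile 98.4 of that table in WT, was at percentile 57.04 of the 33500 genes detected in oocytes. Fos was at percentile 92.8 in WT germ cells and 50.6 in oocytes. Jun was at percentile 89.01 in the first and 6.49 in the second. Dusp1 was high in both, at percentiles 92.01 and 99.03. Junb was at percentile 89.2 in oocytes and 77.96 in WT germ cells. Its oocyte value is from a mean over sets of which 4 stood at only 0.21 to 0.59 CPM per kb. Zfp36 was at percentile 83.4 in oocytes and 73.4 in WT germ cells. Germ cell percentiles were taken over all 19004 genes of that table, and oocyte percentiles only over the 33500 genes with counts. Differences as small as those of Junb and Zfp36 therefore do not show a higher rank in oocytes. The 2 tables were normalised separately and list different genes, so only ranks within each were set side by side.

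**Figure D3:**
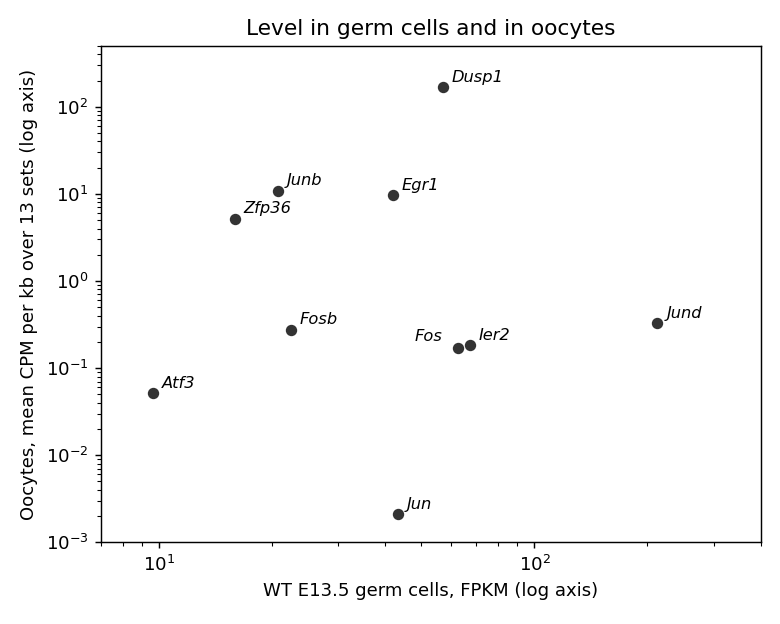
Mean oocyte level in CPM per kb over 13 sets (vertical, log axis) against FPKM in the WT germ cell library (horizontal, log axis), 1 point per gene. Jun and Jund have high germ cell values and low oocyte values, whereas Dusp1 is high on both axes.

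Depth bounds the lowest levels. Fos gave a count in 53 of 94 oocytes, Jund in 62, Ier2 in 39, Atf3 in 25 and Jun in 3. Jun had no count in the deepest set, Young_WT__246, where 3 counts, taken as the limit that a count of 0 allows, are 0.0403 CPM. The exact 95% Poisson limit for Jun there is 0.0496 CPM, and both cover counting error only. Fosb gave a count in 93 oocytes and differed little between sets, from 1.15 to 2.70 CPM. Overlapping genes limit some of these values, because counting was not by strand. Of the Jund exons 877 bases (52.6%) lie opposite Gm11175, and its counting model of 1668 bases is shorter than the 2894 bases of the germ cell table. Jun shares 232 bases with the antisense gene Junos, and Zfp36 shares 125 bases with Gm44710.

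Fos and Ier2 reached their highest single values in oocyte S1616 of the old Tet2-/- set S161. It held 12 Fos counts (3.70 CPM) and 14 Ier2 counts (4.31 CPM). The other 6 oocytes of its set had at most 2 Fos counts and 4 Ier2 counts. The same oocyte had the highest Zfp36 of its set, 24.3 CPM against 11.1 to 13.3, but an ordinary Egr1 of 24.04 CPM and no Jun count. Its 14 macrophage markers summed to 2151 CPM, where the next oocyte of the 94 had 81.7 CPM and the median was 31.8. Whether the Fos, Ier2 and Zfp36 counts belong with those transcripts was not tested. Without this oocyte the set was at 0.37 in place of 0.86 CPM for Fos and at 0.53 in place of 1.09 CPM for Ier2, both within the range of the other sets.

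Junb took 1 of 2 states. In 29 oocytes it was at 1.85 CPM or less, in 65 it lay between 15.7 and 63.7 CPM, and no oocyte fell between. The states followed the sets and crossed genotype and age. All oocytes were low in 4 sets, young WT Young_WT__246 (0.67 CPM), young Tet1-/- T146 (1.36), old WT Old_WT_365 (0.58) and old Tet1-/- Old_Tet1-/-_315 (0.48, 1 oocyte). All were high in 8 sets. These were the young WT sets T148 (32.8 CPM), T211 (26.2) and T231 (52.1), young Tet2-/- T213 (50.1) and T214 (20.7), old WT Old_WT_247 (26.6), old Tet1-/- Old_Tet1-/-_209 (38.04) and old Tet2-/- S161 (55.7). WT and Tet1-/- thus had both states at either age, whereas all 3 Tet2-/- sets were high. Those 3 have T or S identifiers, a kind with 8 low oocytes of 55 and 6 of 7 sets high, against 21 low oocytes of 39 among sets with plain numbers. The set Young_Tet1-/-_201 was mixed. Its oocyte 8 was at 0.41 CPM and its other 6 were between 19.5 and 29.9.

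**Figure D4:**
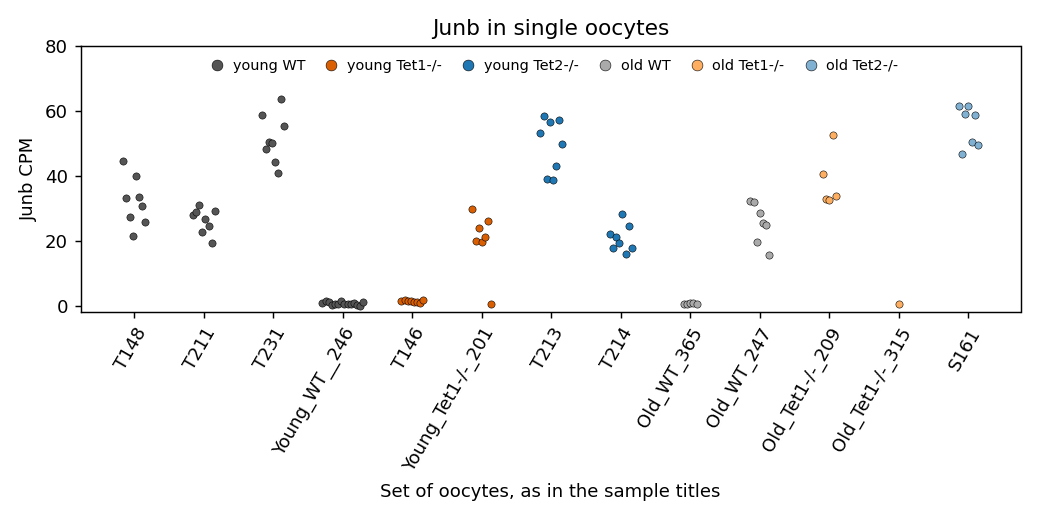
Junb CPM of each of the 94 oocytes (vertical) by set (horizontal), 1 point per oocyte and coloured by group. The 29 low oocytes lie at or under 1.85 CPM and fill 4 sets, with a single low oocyte in Young_Tet1-/-_201.

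Oocyte 8 of Young_Tet1-/-_201 differed from its set-mates at other genes as well. Pnpla3 was at 128 CPM in it and 1.20 to 5.35 in the others, and Dph6 at 365.3 CPM against 4.84 to 13.7. Of 5 neighbours of Junb on chromosome 8 that exceeded 5 CPM in a set, 2 differed between its low and high sets, by less. Hook2 ran from 7.05 to 9.48 CPM in the 4 low sets and from 17.1 to 29.01 in the 8 high ones. Prdx2 ran from 105.7 to 176.7 and from 196.0 to 340.1. The mixed set Young_Tet1-/-_201 was at 12.4 CPM for Hook2 and 121.7 for Prdx2. Its 6 Junb-high oocytes had Prdx2 at 106.8 to 158.4 CPM, within the range of the low sets. Rnaseh2a, Asna1 and Tnpo2 overlapped between low and high sets, Asna1 for example with 7.76 to 10.5 CPM in the low sets and 4.85 to 10.8 in the high ones. By oocyte, Hook2 had a median of 7.46 CPM in the 29 Junb-low oocytes and 20.7 in the 65 Junb-high ones. Prdx2, an antioxidant enzyme gene whose exons share 173 bases (7.5%) with those of Junb, had medians of 117 and 235 CPM. The ranges overlapped for Hook2, from 4.29 to 15.2 CPM and from 9.51 to 34.6, and for Prdx2, from 58.4 to 252.9 CPM and from 106.8 to 400.6. What the shared bases add to Junb was not tested. Among 13098 genes, the log2 CPM most like that of Junb over the 94 oocytes was that of Gm11545 (Pearson r = 0.84), then Hook2 and Pxdn (both 0.81). These points share set and library, and r is given as a description.

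Egr1 was above 50 CPM in 4 sets, all among the 6 with plain numbers as identifiers. By set it stood at 23.9, 17.5, 23.9 and 68.5 CPM in young WT (T148, T211, T231 and Young_WT__246), a mean of 33.5 ± 23.6 (SD, n = 4). It was at 22.5 and 135 CPM in young Tet1-/- (T146 and Young_Tet1-/-_201) and at 20.7 and 36.6 CPM in young Tet2-/-. Old WT had 21.5 and 27.2 CPM (Old_WT_365 and Old_WT_247), old Tet1-/- 79.7 and 57.1 CPM (Old_Tet1-/-_209 and Old_Tet1-/-_315), and old Tet2-/- 26.5 CPM. The 7 sets with a T or S identifier ran from 17.5 to 36.6 CPM. Young WT and young Tet1-/- sets overlapped. Both old Tet1-/- sets lay above both old WT sets, though Old_Tet1-/-_315 is 1 oocyte. Single oocytes of the old groups did overlap, at 23.4 to 122.1 CPM in Old_Tet1-/-_209 and 14.5 to 38.7 CPM in Old_WT_247. Oocytes of 1 set also differed widely, from 19.4 to 245 CPM (median 47.3) in Young_WT__246 and from 83.1 to 213.9 CPM (median 138) in Young_Tet1-/-_201. What the 2 kinds of identifier stand for is not given in the labels. The genes most like Egr1 over the 94 oocytes were Fdft1 and Ndel1 (r = 0.89 each) and Ppp2r5d (0.88).

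**Figure D5:**
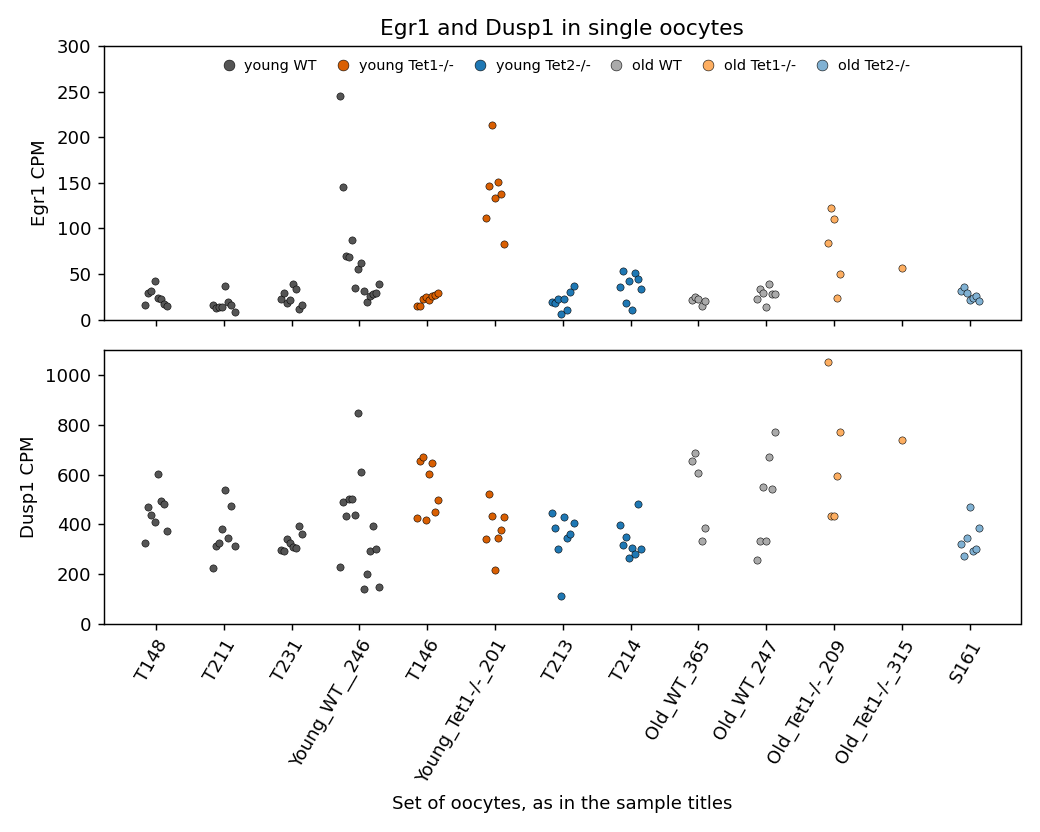
CPM of Egr1 (upper panel) and Dusp1 (lower panel) in each oocyte (vertical) by set (horizontal), 1 point per oocyte, coloured by group. Egr1 has its highest oocytes, up to 245 CPM, in the sets Young_WT__246, Young_Tet1-/-_201 and Old_Tet1-/-_209, and Dusp1 spreads widely within nearly every set.

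Dusp1 was abundant in every set. In young WT it was at 441, 370, 327 and 377 CPM (T148, T211, T231 and Young_WT__246), a mean of 378 ± 47.1 (SD, n = 4). Young Tet1-/- had 550 and 379 CPM, young Tet2-/- 360 and 338, old WT 553 and 453, old Tet1-/- 645 and 739, and old Tet2-/- 346. The old Tet1-/- sets were the 2 highest, and the other 11 ran from 327 to 553 CPM. The 3 oocytes of Young_WT__246 with the most ribosomal protein mRNA (3787 to 7343 CPM) were low for Dusp1, at 143, 203 and 148.2 CPM. The genes most like Dusp1 were Adpgk (r = 0.79), Rhot1 (0.78) and Tent2 (0.77). Zfp36 averaged 16.8 ± 8.57 CPM in young WT (SD, n = 4 sets), with its lowest set (T231, 8.18 CPM) and its highest (T211) in that group, and the sets of the other groups lay between, from 11.5 to 25.3 CPM. Its closest genes were Sall2 and B230359F08Rik (r = 0.61 each) and Pold2 (0.57), and no gene exceeded 0.44 for Fosb.

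In all, 5 comparisons between groups of oocytes were fitted over 14418 genes with edgeR's quasi-likelihood test on set sums, 4 of them with a term for the kind of identifier. The 6 members that passed the filter on low counts were Fosb, Junb, Jund, Egr1, Dusp1 and Zfp36. Fos, Jun, Ier2 and Atf3 did not pass. They were tested only in an alternative edgeR fit without that filter, where none of them was called. No member had an adjusted p under 0.05 by edgeR in any of the 5 comparisons, and none did by limma. Limma called 0 genes in both young comparisons. It called 5 in old Tet1-/- against old WT and 6 in old WT against young WT. Fits that call so few genes say little about the members. In young Tet1-/- against young WT 0.0208% of genes were called by edgeR, and no member was called by DESeq2 (0.208% of genes called) or had an unadjusted p under 0.05, where 691 of the 14418 genes did. The member with the smallest p was Dusp1, with a log2 change of 0.37 (SE 0.20) and an adjusted p of 0.967 by edgeR. Without set T146 the change was 0.04. In young Tet2-/- against young WT 0.0139% of genes were called, again with no member called by DESeq2 (0.111% of genes called) and none at an unadjusted p under 0.05 (835 genes). Egr1 came first with 0.45 (SE 0.29, adjusted p = 0.850 by edgeR). Its sign turned to -0.28 without the identifier term and to -0.03 without set T214.

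In old Tet1-/- against old WT the smallest p was that of Egr1. Its log2 change was 1.65 (SE 0.34), with both old Tet1-/- sets above both old WT sets, though Old_Tet1-/-_315 is 1 oocyte. The adjusted p was 0.155 by edgeR, where 0.0347% of genes were called. At an unadjusted p under 0.05 there were 3 of the 6 members, against 1794 genes. DESeq2 called Egr1 (1.67, adjusted p = 0.001008), in a fit that called 313 genes or 2.17%. The fit of edgeR without a filter on low counts also called it (1.61, adjusted p = 0.000124), with 1.68% of genes called. The adjusted p over all alternatives ran from 0.000124 to 0.6485. All 4 sets have plain numbers as identifiers, so this difference lies within 1 kind.

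Old WT against young WT gave Egr1 the opposite sign, a log2 change of -1.85 (SE 0.38, adjusted p = 0.168 by edgeR), where 0.0416% of genes were called. It was the 1 member at an unadjusted p under 0.05, against 1873 genes. The 2 comparisons share the old WT sets. This value rests on the identifier term, since without it the change was -0.50. Within the plain-number kind, young WT has the 1 set Young_WT__246 (68.5 CPM) beside 21.5 and 27.2 CPM in old WT. The young WT sets of the T kind, at 17.5 to 23.9 CPM, lay at or near the level of old WT. DESeq2 called Egr1 here too (-1.85, adjusted p = 0.000809, 2.30% of genes called), and so did the unfiltered edgeR fit (-1.87, adjusted p = 3.335e-05, 2.00% called). Across the alternatives the adjusted p ran from 3.335e-05 to 1. The Tet1-/- change of Egr1 in old minus that in young oocytes was 1.18 on the log2 scale (SE 0.46), with an adjusted p of 0.813 by edgeR. No gene of the table was called for that difference.

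In old Tet2-/- against old WT, with 1 set against 2 and no identifier term, the smallest p was that of Dusp1. The old Tet2-/- set has an S identifier and both old WT sets have plain numbers, so genotype and kind of identifier cannot be told apart here. The log2 change of Dusp1 was -0.55 (SE 0.31, adjusted p = 1 by edgeR), where 0.0139% of genes were called. No member was called by DESeq2 (0.0763% of genes called) and none had an unadjusted p under 0.05, against 267 genes. The lone set was assumed to vary like the others. The unfiltered fit called Junb (2.01, adjusted p = 0.002865, 0.725% of genes called). The Junb levels of old WT were 0.58 and 26.6 CPM, 1 set in each state, so that the change depends on which old WT sets are at hand.

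Of 58 other genes of the pathway that passed the filter, none was called by edgeR or limma in any of the 5 comparisons. Neither method called more than 0.0416% of all genes there. DESeq2 called 3 of the 58 in old Tet1-/- against old WT and 3 in old WT against young WT, where it called 2.17% and 2.30% of genes, and none in the other 3 comparisons. The unfiltered edgeR fit likewise called 3 of 81 in each of these 2 and none in the others. Of the 38 further immediate early genes 22 passed the filter, and their median log2 changes lay between -0.07 and 0.11, beside medians of -0.01 to 0.003 over all genes. Medians ran from -0.02 to 0.40 for the 21 upstream regulators, from -0.37 to 0.23 for the bZIP partners and from 0.03 to 0.47 for the feedback inhibitors of MAP kinase. The upstream median of 0.40 was that of old Tet1-/- against old WT. There 6 of the 21 had an unadjusted p under 0.05 by edgeR, against 1794 of all 14418 genes. In old WT against young WT 7 of the 21 did, against 1873 genes. In the same 2 comparisons 2 and 3 of 8 feedback inhibitors passed that limit. So did 0 and 1 of 7 bZIP partners, and 2 and 0 of 22 further immediate early genes. Nfkbiz (212.9 CPM), Nfkbia (165) and Ppp1r15a (132) were the most abundant of the further immediate early genes. Of the 12 other bZIP partners 7 passed, with Atf2 the highest at 171 CPM. The upstream regulators were all present at 1 CPM or more, 21 of 21, with Mos, the oocyte MAP kinase kinase kinase, at 1094 CPM. Of 13 feedback inhibitors of MAP kinase 8 reached 1 CPM, led by Dusp14 at 727 CPM and Spry4 at 622.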

How the data were processed

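The 2 kinds of file were deposited by the authors. Oocyte read counts per gene were made with featureCounts 1.6.2 on GENCODE M17, per the file headers, with multi-mapping and overlapping reads counted, a minimum mapping quality of 30 and no strand. HISAT2, SAMtools and build mm10 are named in the submitters' processing notes. For germ cells the deposited table gives FPKM per library, with the authors' log2 ratio and their p-value adjusted to a false discovery rate. How FPKM were made is not given in the sources used here.

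From these, counts were summed per set and fitted with edgeR 4.0.16 (quasi-likelihood, TMM, CPM of at least 1 in 2 or more sets, Benjamini-Hochberg adjustment, threshold 0.05). DESeq2 and limma were alternatives. Germ cell ratios are log2 with a pseudocount of 0.1. The fits were tested on simulated data. No 2 of the oocytes of a set had identical counts. The 39 samples with no group in the labels and 39 count columns matched to no grouped sample were left out. Members and lists were chosen with earlier results of these data known. In each comparison a fitted change is named for the member with the smallest p and for any called. Of other lists, up to 4 genes with the largest germ cell ratio or 3 with the highest oocyte CPM could be named.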

Additional observations from a re-analysis of the deposited data

Results flagged for a closer look

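Outlying values were looked for among the 4 young WT sets (9 genes with values that differ) and among the single oocytes of a set (55 groups of 4 to 10 oocytes, for the 5 members at 1 CPM or more). A value counted as outlying when its gap to the nearest other, divided by the whole range, passed Dixon's 95% limit, which chance does in about 1 in 20 groups. Over all groups checked, 5 values passed.

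Egr1 in young WT set Young_WT__246 was at 68.5 CPM, where the other 3 young WT sets lay between 17.5 and 23.9. It is also the only one of the 4 whose identifier is a plain number. Junb in oocyte 8 of Young_Tet1-/-_201 was at 0.41 CPM, where the other 6 oocytes had 19.5 to 29.9. Egr1 in 1 oocyte of young WT set T211 was at 36.5 CPM, against 8.67 to 19.3 in the other 7. Dusp1 in 1 oocyte of young Tet2-/- set T213 was at 112 CPM, the lowest of all 94 oocytes, against 302 to 445 in its set. Zfp36 in oocyte S1616 of the old Tet2-/- set was at 24.3 CPM, against 11.1 to 13.3. This oocyte also held the highest macrophage marker sum.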

How the results depend on the processing

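The count of members called in the oocyte comparisons was 0 with edgeR as fitted and stayed at 0 with limma, with a filter of CPM of at least 1 in 7 sets, without the identifier term (in the 4 comparisons that have it), without the 3 ribosomal-rich oocytes or oocyte 8 of Young_Tet1-/-_201, and with each set left out (range 0 to 0). It was 1 (Egr1) for old Tet1-/- against old WT and 1 (Egr1) for old WT against young WT with DESeq2 and with no filter on low counts, and 1 (Junb) for old Tet2-/- against old WT with no filter. DESeq2 called 313 and 331 genes in the first 2 of these, against 5 and 6 by edgeR, and the unfiltered fits called 564, 669 and 243. The cause was not tested. Some of the fits with no member called had no gene called at all. Limma called 0 genes in both young comparisons, and edgeR without the identifier term called 0 in old WT against young WT. Without oocyte 8 of Young_Tet1-/-_201, edgeR called 0 in young Tet2-/- against young WT and in old Tet1-/- against old WT. In such fits no member could be called, so they do not show that the result is stable. Leaving out S1616, added after the data were seen, gave a count of 0 for old Tet2-/- against old WT. Egr1 in young Tet2-/- against young WT reversed to -0.28 without the identifier term and ranged from -0.03 to 0.81 with 1 set left out. In old WT against young WT Egr1 was between -2.47 and -0.50 under all alternatives, and in old Tet1-/- against old WT between 1.37 and 1.82. The count of members at least 2-fold lower in Tet2-/- germ cells was 1, became 0 among genes of at least 10 FPKM and at a 4-fold limit, and was 4 at a 1.5-fold limit. It stayed at 1 under the other scalings and pseudocounts. From medians over oocytes the mean level was 0 CPM for Atf3 and Jun, 0.246 for Fos and 0.145 for Ier2. No paired analysis was possible because oocyte numbers only count within a set and tie no sets across groups. Depth limits the 5 members under 1 CPM, which gave 596 counts together over 94 oocytes.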
